A study of Mus musculus with 10 samples.

Results

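The genes described here are 43 genes of fatty acid oxidation and synthesis, taken as a named list of enzymes, carriers and binding proteins and found by symbol among the 18725 genes of the deposited table. All 43 symbols were present. The filter on low counts left 42 of them among the 14862 genes tested, and Fabp4 is given by its counts. RNA was sequenced from mouse cochlea, from the outer sulcus with the spiral ligament under it, in 5 euthyroid and 5 hypothyroid libraries. All animals were C57BL/6J mice at postnatal day 10. The mothers of the hypothyroid group drank water with methimazole at 0.05%, sodium perchlorate monohydrate at 1.0% and sucrose at 5.0% from embryonic day 17 until the pups were collected, and those of the euthyroid group drank vehicle. Both agents stop the thyroid from making hormone, methimazole at the peroxidase and perchlorate at the uptake of iodide. The extraction text of the same labels speaks of femoral head cartilage at postnatal day 22, while every other label gives the cochlea at postnatal day 10. The labels do not say which pups shared a mother, so a litter effect and the treatment cannot be told apart. Nor do they say that each library came from a separate animal, so p-values measure the spread between these libraries, which may be technical in part.

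Fatty acids enter a cell through carriers such as Cd36 or after Lpl frees them from lipoproteins, are held by binding proteins, and are activated to acyl-CoA by the long-chain acyl-CoA synthetases. Long-chain acyl groups cross into mitochondria on carnitine, where a repeating cycle of dehydrogenation, hydration, dehydrogenation and thiolysis shortens them and passes electrons on through electron transfer flavoprotein. In the cytosol the opposite route builds palmitate from citrate by way of Acly, the acetyl-CoA carboxylases and Fasn, and elongases and desaturases then make the longer and unsaturated acyl chains of membranes. Thyroid hormone is known in liver as a regulator of both routes.

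Library totals were 19298261 to 20064063 rounded counts. Factors of the trimmed mean of M values (TMM), which correct for library composition, were 0.894 to 0.936 in euthyroid and 1.07 to 1.12 in hypothyroid libraries. Markers of the outer sulcus and root cells were present at a summed 4640 to 5280 CPM (counts scaled to the TMM-adjusted library size) in euthyroid and 1860 to 2600 in hypothyroid libraries, with 5 of 8 lower and 2 higher. Most of that sum came from Epyc, with a mean of 3978 CPM in euthyroid and 1735 in hypothyroid libraries. Spiral ligament markers summed to 16300 to 20100 and 9050 to 11800 CPM, with 4 of 6 lower and 1 higher. They did not move as one: Otos fell 69.7-fold, Tgfbi rose 3.32-fold and Otor did not pass (edgeR adjusted p = 0.109). Other cell types in the dissection differed too. Chondrocyte markers summed to 32700 to 38100 CPM in euthyroid and 13200 to 14200 in hypothyroid libraries, and bone cell markers to 974 to 1480 and 25.1 to 39.2. Most of the chondrocyte sum came from Col2a1, with means of 32370 and 12480 CPM, and 4 of 4 tested chondrocyte markers were lower. Macrophage markers, at 252 to 282 and 386 to 494, and melanocyte markers, at 398 to 606 and 864 to 1660, were on the higher side in hypothyroid. No marker of these 6 lists was at 0 in all libraries of a group. The part of these cell types in the results on the 43 genes was not tested, and in pieces of tissue fewer cells of a type and less RNA per cell cannot be told apart.

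Of the 42 tested genes, 10 were higher and 29 lower in hypothyroid libraries at an adjusted p under 0.05 (edgeR's quasi-likelihood test, Benjamini-Hochberg over all genes tested). Among all genes tested, 37.7% were higher and 34.1% lower by the same rule, 71.8% in all. The members' shares were 23.8% higher and 69.0% lower. Their median log2 fold change was -0.33, where that of all genes was 0.04. A difference of at least 2-fold was found lower in 7 of 42, against 7.91% of all genes, and higher in 0 of 42, against 9.25%. The greatest rise of a member on the log2 scale was 0.45, of Acads, or 0.72 with library sizes alone. The euthyroid and hypothyroid values did not overlap for 31 of 42, against 57.9% of all genes. Some calls depended on how libraries were scaled, among them falls as large as 0.50 on the log2 scale (Acacb, edgeR adjusted p = 0.114 with library sizes alone). With library sizes alone the median of all genes moved from 0.04 to 0.30 and that of the members to -0.06, and 13 members were higher and 17 lower. Of all 14862 genes tested, 8650 were then higher and 2928 lower. A direction is called held here when the gene passed with the same sign under all 8 scalings and tests tried (edgeR with 4 kinds of scaling, DESeq2, and limma on deposited TPM with a pseudocount of 1 or 0.1 and on deposited FPKM). Held lower were 17 of 42 members, against 19.9% of the 12933 genes tested in all 8, and held higher were 8 of 42, against 34.8%. The rule was not even between directions. Library sizes alone and the limma fits put the median of all genes at 0.23 to 0.30. Small rises therefore passed more readily than falls of like size and error: Cpt1c at 0.21 (SE 0.05) was held, while Hadha at -0.21 (SE 0.04) was not. Each log2 fold change below is hypothyroid over euthyroid with TMM scaling, and its error is an approximate standard error (SE).

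**Figure D1:**
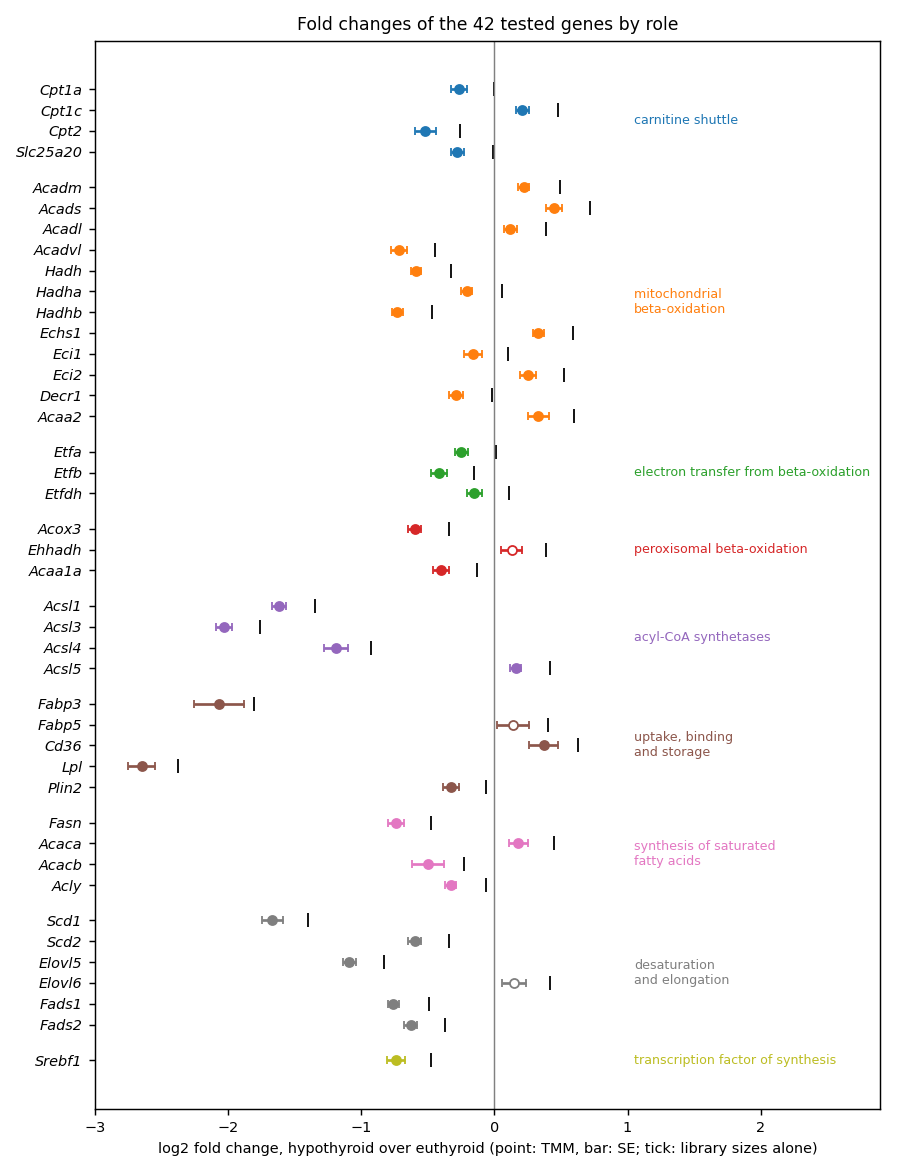
Log2 fold change of hypothyroid over euthyroid for the 42 tested genes, grouped by role; points are the TMM-scaled estimate, bars its SE (5 libraries a group), open points genes that did not pass, and black ticks the estimate with library sizes alone. The ticks lie to the right of every point, and the 7 genes left of -1 are 3 acyl-CoA synthetases, Fabp3, Lpl, Scd1 and Elovl5.

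Among the 42 tested members the greatest fall was that of Lpl, in the role of fatty acid release and binding. Lpl, lipoprotein lipase, which frees fatty acids from circulating triglyceride, had 31.2, 32.8, 36.3, 37.9 and 28.9 CPM in the euthyroid libraries and 4.82, 6.32, 5.59, 4.99 and 4.90 CPM in the hypothyroid ones. The lowest euthyroid value was thus well above the highest hypothyroid value. Lpl fell 6.27-fold (log2 fold change -2.65 with SE 0.10, edgeR adjusted p = 5.17e-12), and the direction was held. Gpihbp1, the endothelial protein that anchors Lpl at the capillary wall, was higher, from 1.11 to 1.52 CPM in euthyroid to between 3.18 and 6.19 in hypothyroid libraries (log2 fold change 1.80 with SE 0.21, edgeR adjusted p = 2.26e-06). Angptl4, a secreted inhibitor of Lpl, rose 4.27-fold, from 7.21 to 8.70 CPM to between 24.6 and 47.6 CPM (log2 fold change 2.09 with SE 0.16, edgeR adjusted p = 1.82e-07). Markers of blood vessel endothelium summed to 694 to 861 CPM in euthyroid and 544 to 649 in hypothyroid libraries, with 6 of 8 lower and 1, Gpihbp1, higher. None of the 8 was at 0 in all libraries of a group, and their part in the values of Lpl was not tested.

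Fabp3, a cytosolic fatty acid binding protein best known from heart and muscle, had 9.19, 8.996, 5.19, 11.8 and 8.54 CPM in euthyroid and 2.25, 1.85, 2.12, 2.26 and 1.89 CPM in hypothyroid libraries. The euthyroid values were spread over more than the hypothyroid ones, and the groups did not overlap. Fabp3 fell 4.2-fold (log2 fold change -2.07 with SE 0.19, edgeR adjusted p = 9.96e-08), from 792 to 220 counts over 5 libraries. It shares 9.84% of its annotated exon bases with Zcchc17 on the opposite strand, which was lower as well (log2 fold change -0.31). Markers of skeletal muscle, another source of Fabp3, summed to 1.29 to 1.80 CPM in euthyroid and 2.62 to 3.76 in hypothyroid libraries. They did not move as one: of 6 markers 2 were tested, Tnnt3 was higher (43 against 260 counts) and Mylpf did not pass (edgeR adjusted p = 0.492), while Myh3, too low for a test, had 35 against 1 counts. Their part in the values of Fabp3 was not tested. Fabp4, the binding protein of adipocytes and capillary endothelium, was counted 16, 2, 12, 8 and 17 times in euthyroid and 1, 0, 0, 1 and 0 times in hypothyroid libraries. Over the TMM-adjusted library sizes its level was 32.2-fold lower, with a 95% exact binomial interval of 8.5 to 272 that covers counting error only. No adipocyte marker had enough counts for a test. The 6 analysed summed to 0.108 to 0.378 CPM in euthyroid and 0 to 0.187 in hypothyroid libraries, each with few counts. Summed by group, euthyroid first, Adipoq had 13 and 0 counts, Plin1 2 and 5, Pck1 2 and 1, and Lep, Cfd and Retn 0 and 1 each. Markers of blood vessel endothelium, given with Lpl above, were lower in 6 of 8 and higher in 1. Macrophage markers were higher in 8 of 8. The part of any of these cell types in the counts of Fabp4 was not tested.

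Fabp5, the epidermal binding protein, did not pass (log2 fold change 0.14 with SE 0.12, edgeR adjusted p = 0.299), with 4.57 to 6.60 CPM in euthyroid and 5.59 to 6.70 in hypothyroid libraries. Fabp5 was higher with library sizes alone (log2 fold change 0.40, edgeR adjusted p = 0.0063). Cd36, the membrane fatty acid translocase, rose by a small step that was held (log2 fold change 0.37 with SE 0.11, edgeR adjusted p = 0.00781). It had 11.1, 10.02, 9.09, 9.52 and 10.4 CPM in euthyroid and 16.0, 11.1, 14.3, 12.4 and 10.9 CPM in hypothyroid libraries, so the groups overlapped at the edge. Macrophages also express Cd36, and their markers were higher in hypothyroid, 8 of 8. Markers of blood vessel endothelium went mostly the other way, with 6 of 8 lower and 1 higher. The part of either cell type in the values of Cd36 was not tested. Plin2, which coats lipid droplets, fell by 0.33 on the log2 scale (SE 0.06, edgeR adjusted p = 0.000328). With library sizes alone its value was -0.06 (edgeR adjusted p = 0.441).

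**Figure D2:**
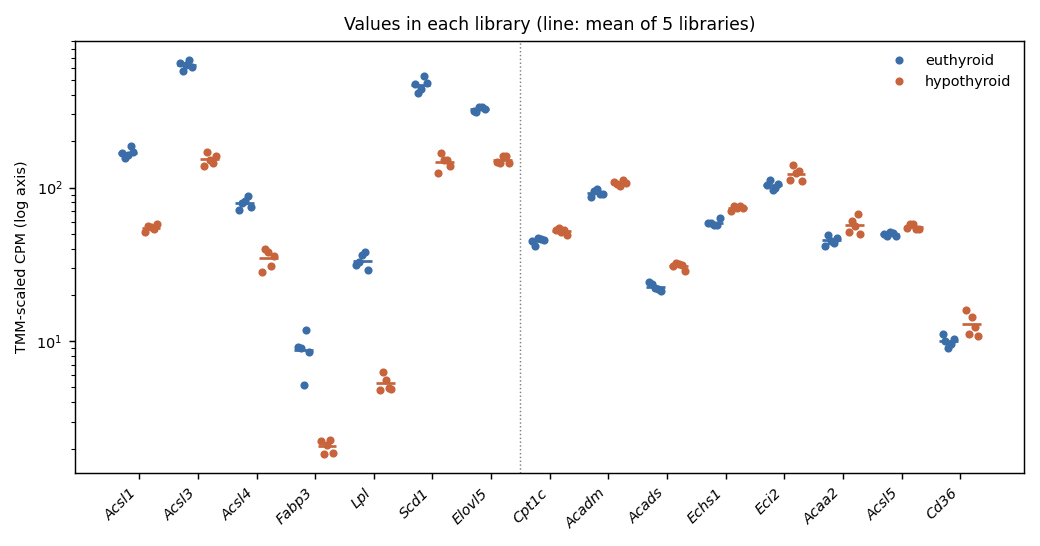
TMM-scaled CPM (log axis) in each of the 5 euthyroid and 5 hypothyroid libraries; left of the dotted line the 7 genes at least 2-fold lower, right of it the 8 genes whose rise was held, with lines at the group means. The points of the 7 lower genes lie in separate bands, Lpl at 28.9 to 37.9 and 4.82 to 6.32 CPM, while those of Eci2 and Cd36 overlap.

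Of the 4 acyl-CoA synthetases 3 fell by more than 2-fold and the other rose a little. Acsl3, an enzyme of endoplasmic reticulum and lipid droplets, had 643, 578, 624, 673 and 608 CPM in euthyroid and 138, 171, 151, 144 and 161 CPM in hypothyroid libraries. It fell 4.08-fold (log2 fold change -2.03 with SE 0.06, edgeR adjusted p = 7.37e-13). Per length, in deposited TPM (transcript abundance scaled to a fixed total), it was the second most abundant of the 43 genes in euthyroid, at 371.9 ± 18.3 TPM (SD, n = 5), and rank 13 in hypothyroid, at 107.3 ± 8.94 TPM (SD, n = 5). Acsl1, the broad long-chain synthetase of liver, fat and muscle, had 168, 156, 164, 187 and 171 CPM in euthyroid and 51.2, 56.5, 55.4, 53.4 and 58.4 CPM in hypothyroid libraries. The hypothyroid values of Acsl1 lay close together, and the 2 groups were far apart. It fell 3.07-fold (log2 fold change -1.62 with SE 0.05, edgeR adjusted p = 1.82e-12). Acsl4, which prefers arachidonate, had 71.1, 79.2, 81.3, 87.7 and 75.2 CPM against 28.2, 39.8, 38.1, 31.0 and 35.8 CPM and fell 2.28-fold (log2 fold change -1.19 with SE 0.09, edgeR adjusted p = 2.59e-08).

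Acsl5, a synthetase of mitochondria and endoplasmic reticulum, was higher in hypothyroid, with 49.9, 48.6, 51.1, 50.8 and 48.5 CPM against 54.8, 58.3, 57.8, 53.4 and 53.8 CPM (log2 fold change 0.16 with SE 0.04, edgeR adjusted p = 0.0049). The step was small but the groups did not overlap, and the direction was held. Acsl5 shared 8.31% of its annotated exon bases with Zdhhc6 on the opposite strand, and strandedness was not given. Zdhhc6 did not pass (log2 fold change -0.14, edgeR adjusted p = 0.0598). Within a library, which leaves scaling out, the ratio of Acsl5 to Acsl1 TPM was 0.390 in the median euthyroid and 1.38 in the median hypothyroid library. Acsl5 was thus the lesser of the pair in all 5 euthyroid and the greater in all 5 hypothyroid libraries. The 4 synthetases together summed to 529 to 588 TPM in euthyroid and 201 to 234 TPM in hypothyroid libraries. Acsl6, a synthetase of brain outside the 43, fell 17.9-fold, from 39.9 to 46.6 CPM to between 1.89 and 2.81 CPM (log2 fold change -4.16 with SE 0.09, edgeR adjusted p = 4.66e-14). Acsl3 shared 5.60% of its annotated exon bases with Utp14b on the same strand, and Utp14b was lower too (log2 fold change -1.93), so reads in the shared stretch could have been counted for either.

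RefSeq promoter windows, 250 bases before to 50 after a start site on build GRCm38.p6, were matched for 35 of the 43 genes, and a gene with several start sites could have several windows. No window was matched for Acaa2, Decr1, Fabp4, Fabp5, Fads1, Lpl, Scd1 or Scd2, so these genes were not searched. The windows were searched on both strands for TCACNCCAC, a form of the sterol regulatory element bound by the product of Srebf1. They were also searched for CCAAT, the box bound by NF-Y, and for TCAAGGTCA, a site bound by estrogen-related receptors. TCACNCCAC was in a window of 2 of the 35 genes, Acsl1 and Ehhadh, or 5.71%, against 1.44% of all 27025 genes with a window. CCAAT was in a window of 19 of 35 genes, or 54.3%, against 41.1%, and TCAAGGTCA in one of 0 of 35, against 0.466%. The window of Acsl1 that holds the match, the one such window of a called gene, is shown with the match on the opposite strand in capitals, and it starts 76 bases before the start site. It lies on the plus strand at chr8:46490716-46491015, inside the gene, whose first annotated start is at 46471037, so it belongs to an inner start site. The window at the first start held no match.
Acsl1: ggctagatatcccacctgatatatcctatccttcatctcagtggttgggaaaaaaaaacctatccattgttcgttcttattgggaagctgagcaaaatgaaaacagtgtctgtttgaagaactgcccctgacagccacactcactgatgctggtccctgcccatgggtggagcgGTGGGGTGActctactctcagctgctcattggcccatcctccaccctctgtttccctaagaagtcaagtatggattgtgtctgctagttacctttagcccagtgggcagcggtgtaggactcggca
A match is a description of letters in the window and not of binding, and which start site the libraries used was not measured.

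Of the 4 genes of the carnitine shuttle, 3 fell and 1 rose, all by less than 2-fold. Cpt1a, the rate-limiting acyltransferase of the outer mitochondrial membrane, had 131, 118, 139, 138 and 131 CPM in euthyroid and 96.4, 121, 107, 114 and 107 CPM in hypothyroid libraries, with overlap of 1 library. It fell by 0.27 on the log2 scale (SE 0.06, edgeR adjusted p = 0.00106), and with library sizes alone it did not pass (edgeR adjusted p = 0.982). Cpt1c, a form best known from neurons, rose and the direction was held, with 45.2, 41.5, 47.0, 46.0 and 45.4 CPM against 53.1, 54.5, 51.2, 52.9 and 49.4 CPM (log2 fold change 0.21 with SE 0.05, edgeR adjusted p = 0.00104). The ratio of Cpt1a to Cpt1c TPM was 1.80 to 1.94 in euthyroid and 1.12 to 1.38 in hypothyroid libraries, without overlap. Cpt2, which re-forms acyl-CoA at the inner membrane, fell and was held (log2 fold change -0.52 with SE 0.08, edgeR adjusted p = 3.05e-05). Slc25a20, the carrier of acylcarnitine across that membrane, fell by 0.28 on the log2 scale (SE 0.05, edgeR adjusted p = 0.000104), and the value was -0.01 with library sizes alone. Cpt1b, the muscle form outside the 43, did not pass (log2 fold change 0.19 with SE 0.15, edgeR adjusted p = 0.286). Slc22a5, the carnitine transporter of the cell surface, fell 2.53-fold (log2 fold change -1.34 with SE 0.05, edgeR adjusted p = 3.08e-12).

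The 12 enzymes of mitochondrial beta-oxidation went both ways, with 6 higher and 6 lower and a median of -0.02. Scaled by library sizes alone, 6 were higher and 3 lower, with a median of 0.25, and 5 rises and 3 falls were held. Both directions were found among the dehydrogenases and among the later enzymes. Among the acyl-CoA dehydrogenases, which open it, Acadvl for very long chains fell 1.64-fold (log2 fold change -0.72 with SE 0.06, edgeR adjusted p = 1.65e-08), from 133, 141, 139, 144 and 132 CPM to 76.3, 89.1, 86.7, 90.6 and 77.0 CPM. Acads for short chains rose 1.37-fold (log2 fold change 0.45 with SE 0.06, edgeR adjusted p = 5.65e-06), from 24.4, 23.5, 22.1, 22.03 and 21.3 CPM to 30.9, 32.3, 31.8, 31.4 and 28.5 CPM. Neither gene's groups overlapped, and both directions were held. Acadm for medium chains rose by a smaller step that was also held (log2 fold change 0.22 with SE 0.04, edgeR adjusted p = 0.000285). Acadl for long chains was at the threshold (log2 fold change 0.12 with SE 0.05, edgeR adjusted p = 0.0496), and its call ended without euthyroid library 1, 2, 4 or 5 or hypothyroid library 2, 3 or 4 (log2 fold changes of 0.09 to 0.13, edgeR adjusted p of 0.0543 to 0.147). The ratio of Acadl to Acadvl TPM was 0.666 to 0.735 in euthyroid and 1.14 to 1.29 in hypothyroid libraries. Acadvl shared 42.9% of its annotated exon bases with Dvl2 on the opposite strand, Dvl2 was higher (log2 fold change 0.56), and the strandedness of the libraries was not given, so reads of the shared stretch could not be told apart.

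Hadha and Hadhb encode the alpha and beta subunits of the mitochondrial trifunctional protein, which carries out the later steps for long chains, and the 2 genes did not move alike. Hadhb had 137, 153, 140, 145 and 137 CPM in euthyroid and 81.2, 87.9, 86.7, 88.7 and 83.9 CPM in hypothyroid libraries, and fell 1.66-fold (log2 fold change -0.73 with SE 0.04, edgeR adjusted p = 1.11e-09). Hadha had 147, 150, 142, 141 and 144 CPM against 130, 122, 125, 128 and 121 CPM (log2 fold change -0.21 with SE 0.04, edgeR adjusted p = 0.000221). The fall of Hadhb was held, whereas the sign of Hadha turned to 0.06 with library sizes alone (edgeR adjusted p = 0.234). The ratio of Hadha to Hadhb TPM was 0.794, 0.730, 0.755, 0.725 and 0.784 in euthyroid and 1.19, 1.03, 1.07, 1.08 and 1.08 in hypothyroid libraries, so that Hadha was below Hadhb in every euthyroid library and above it in every hypothyroid one. The genes lie head to head on chromosome 5, Hadha on the minus strand and Hadhb on the plus strand, with 272 bases between their annotated start sites. Their promoter windows, chr5:30154931-30155230 and chr5:30155003-30155302, have 228 bases in common. The window of Hadhb is shown on the plus strand, chosen after the values were seen because the pair shares it, with the bases that also lie in the window of Hadha in capitals.
Hadhb: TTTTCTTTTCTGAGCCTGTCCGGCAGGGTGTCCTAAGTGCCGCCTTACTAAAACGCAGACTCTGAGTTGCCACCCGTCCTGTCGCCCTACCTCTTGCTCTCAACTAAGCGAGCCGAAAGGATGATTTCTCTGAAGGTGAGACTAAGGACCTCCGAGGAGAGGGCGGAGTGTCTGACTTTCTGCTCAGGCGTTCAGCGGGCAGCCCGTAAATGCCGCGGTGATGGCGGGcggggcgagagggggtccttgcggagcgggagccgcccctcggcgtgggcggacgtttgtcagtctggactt
Neither window held any of the 3 motifs. The window of Hadhb was 60.7% G and C and that of Hadha 58.7%, where the median of all 32851 windows was 52.7%.

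The other enzymes of the cycle also went both ways. Hadh, the dehydrogenase for shorter hydroxyacyl chains and the most abundant of the 12 per length in euthyroid (189.0 ± 7.76 TPM, SD, n = 5), fell 1.51-fold and was held (log2 fold change -0.59 with SE 0.04, edgeR adjusted p = 5.9e-09). Echs1, the short-chain hydratase, rose 1.26-fold (log2 fold change 0.33 with SE 0.04, edgeR adjusted p = 9.23e-06), from 56.9 to 63.3 CPM in euthyroid to between 70.7 and 76.2 CPM in hypothyroid libraries. Acaa2, the thiolase of medium chains, rose by a like amount (log2 fold change 0.33 with SE 0.08, edgeR adjusted p = 0.00116) and did not overlap. Echs1 and Acaa2 were both held. The isomerases Eci1 and Eci2 and the reductase Decr1 bring unsaturated chains into the cycle. Eci2 rose and was held (log2 fold change 0.25 with SE 0.06, edgeR adjusted p = 0.00202), although its highest euthyroid library, at 111.5 CPM, was above its lowest hypothyroid one, at 110.9 CPM. Eci2 went from rank 8 to rank 2 of the 43 genes in TPM. Decr1 was lower (log2 fold change -0.29 with SE 0.05, edgeR adjusted p = 0.000107) and Eci1 lower at the threshold (log2 fold change -0.16 with SE 0.07, edgeR adjusted p = 0.0366), and neither was held. With library sizes alone Decr1 was at -0.02 and Eci1 turned to 0.10, and the call of Eci1 ended without euthyroid library 2 or 5 or hypothyroid library 2, 3 or 5 (edgeR adjusted p of 0.0513 to 0.095).

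The genes of electron transfer from these dehydrogenases were lower in 3 of 3, but none of the falls was held. Etfb, the beta subunit of electron transfer flavoprotein, had 55.9, 56.4, 56.7, 56.5 and 57.5 CPM in euthyroid and 44.99, 38.5, 41.8, 48.3 and 38.5 CPM in hypothyroid libraries (log2 fold change -0.42 with SE 0.06, edgeR adjusted p = 2.06e-05). The hypothyroid libraries were spread more widely than the euthyroid ones. With library sizes alone the value of Etfb was -0.15 (edgeR adjusted p = 0.0515), and 53.0% of its annotated exon bases are also those of Gm45233 on the same strand, a gene model not analysed here. Etfa, the alpha subunit, was at -0.25 (SE 0.05, edgeR adjusted p = 0.000362), and Etfdh, which hands the electrons to ubiquinone, at -0.15 (SE 0.06, edgeR adjusted p = 0.0275). Both turned sign with library sizes alone, to 0.01 and 0.11. The call of Etfdh was lost without hypothyroid library 1 or 5 (edgeR adjusted p of 0.0791 and 0.0709).

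In peroxisomes, which shorten very long and branched chains, 2 of 3 members fell. Acox3, the oxidase of branched chains, fell 1.52-fold (log2 fold change -0.60 with SE 0.05, edgeR adjusted p = 2.5e-08), with 64.2, 60.7, 63.9, 64.7 and 58.7 CPM against 40.6, 40.4, 38.9, 42.6 and 43.02 CPM, and was held. Acaa1a, the peroxisomal thiolase, was 1.32-fold lower (log2 fold change -0.40 with SE 0.06, edgeR adjusted p = 1.62e-05) but at -0.13 with library sizes alone (edgeR adjusted p = 0.0508). Its near-identical copy Acaa1b was estimated at 0.43 to 1.35 CPM in every library, and how reads common to both were divided was not tested. Ehhadh, the bifunctional enzyme, did not pass (log2 fold change 0.13 with SE 0.08, edgeR adjusted p = 0.185), but was higher with library sizes alone (0.39, edgeR adjusted p = 0.000592). Outside the 43, Acox2, the oxidase of branched chains and bile acid precursors, fell 14.3-fold, from 14.3 to 17.7 CPM to between 1.04 and 1.24 CPM (log2 fold change -3.84 with SE 0.11, edgeR adjusted p = 3.93e-13).

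Of the 4 genes that build saturated chains, 3 fell, and of these Fasn alone was held. Fasn, fatty acid synthase, had 389, 405, 391, 417 and 377 CPM in euthyroid and 218, 259, 230, 220 and 255 CPM in hypothyroid libraries and fell 1.67-fold (log2 fold change -0.74 with SE 0.06, edgeR adjusted p = 1.26e-08). Acly, which makes cytosolic acetyl-CoA from citrate, had 220, 216, 215, 217 and 215 CPM against 170, 168, 172, 173 and 180 CPM. The groups of Acly were tight and apart (log2 fold change -0.33 with SE 0.04, edgeR adjusted p = 1.24e-06), yet with library sizes alone its value was -0.06 (edgeR adjusted p = 0.141). The acetyl-CoA carboxylases, cytosolic Acaca for synthesis and mitochondrial Acacb for the brake on Cpt1, were at 0.18 (SE 0.07, edgeR adjusted p = 0.0261) and -0.50 (SE 0.12, edgeR adjusted p = 0.00242). The call of Acaca ended without euthyroid library 2, 3, 4 or 5 or hypothyroid library 2 or 5 (edgeR adjusted p of 0.052 to 0.0879). The ratio of Acaca to Acacb TPM was 3.26, 2.18, 1.97, 2.13 and 2.74 in euthyroid and 4.49, 4.33, 3.79, 2.62 and 4.52 in hypothyroid libraries. Hypothyroid library 4, at 2.62, lay among the euthyroid ones.

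Of the 6 genes of desaturation and elongation 5 fell, and all 5 falls were held. They include 3 of the 4 most abundant members per length in euthyroid libraries, Scd2, Elovl5 and Scd1. Scd2, the stearoyl-CoA desaturase of brain and young tissue, was first of the 43 in both groups, at 646.5 ± 20.2 TPM in euthyroid and 498.4 ± 17.96 TPM in hypothyroid libraries (SD, n = 5). In CPM it fell 1.52-fold (log2 fold change -0.60 with SE 0.05, edgeR adjusted p = 4.4e-08). Scd1, the form that dominates in liver and fat, had 476, 414, 436, 530 and 478 CPM in euthyroid and 124, 167, 151, 152 and 139 CPM in hypothyroid libraries. Scd1 fell 3.18-fold (log2 fold change -1.67 with SE 0.08, edgeR adjusted p = 3.06e-10) and went from rank 4 to rank 20 in TPM. The ratio of Scd1 to Scd2 TPM was 0.306 to 0.368 in euthyroid and 0.146 to 0.178 in hypothyroid libraries. The Scd genes lie in a row on chromosome 19, and between Scd2 (44293676 to 44306864) and Scd1 (44394450 to 44407709) lies Scd4 (44333326 to 44346743, build GRCm38.p6). Scd4, outside the 43, rose 3.07-fold and was held, from 3.40, 4.79, 4.80, 4.34 and 4.38 CPM to 17.0, 14.7, 12.01, 10.5 and 12.4 CPM (log2 fold change 1.62 with SE 0.14, edgeR adjusted p = 6.02e-08). Scd3, the fourth of the row, was lower (log2 fold change -1.22 with SE 0.17, edgeR adjusted p = 1.36e-05). It is outside the rule for named genes and was added after its values were seen. The Scd genes are close in sequence, and how reads common to them were divided could move the values of Scd3 and Scd4, the low ones.

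Elovl5, the elongase of polyunsaturated chains, had 315, 311, 334, 333 and 323 CPM in euthyroid and 147, 145, 160, 160 and 144 CPM in hypothyroid libraries, and fell 2.13-fold (log2 fold change -1.09 with SE 0.05, edgeR adjusted p = 1.85e-11). Fads1 and Fads2, the desaturases that work in turn with Elovl5 on polyunsaturated chains, fell 1.69-fold (log2 fold change -0.76 with SE 0.04, edgeR adjusted p = 7.07e-10) and 1.55-fold (log2 fold change -0.63 with SE 0.05, edgeR adjusted p = 7.94e-09). They are neighbours on chromosome 19, and the ratio of Fads1 to Fads2 TPM, 0.880 to 0.984 in euthyroid and 0.834 to 0.883 in hypothyroid libraries, overlapped. Elovl6, the elongase of saturated chains that takes up the product of Fasn, did not pass (log2 fold change 0.15 with SE 0.09, edgeR adjusted p = 0.153), and passed as higher without hypothyroid library 2 (edgeR adjusted p = 0.0314) and with library sizes alone (log2 fold change 0.42, edgeR adjusted p = 0.00124). The ratio of Elovl6 to Elovl5 TPM rose within libraries from a median of 0.046 to 0.107, without overlap. The 6 genes summed to 1420 to 1490 TPM in euthyroid and 916 to 991 TPM in hypothyroid libraries.

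**Figure D3:**
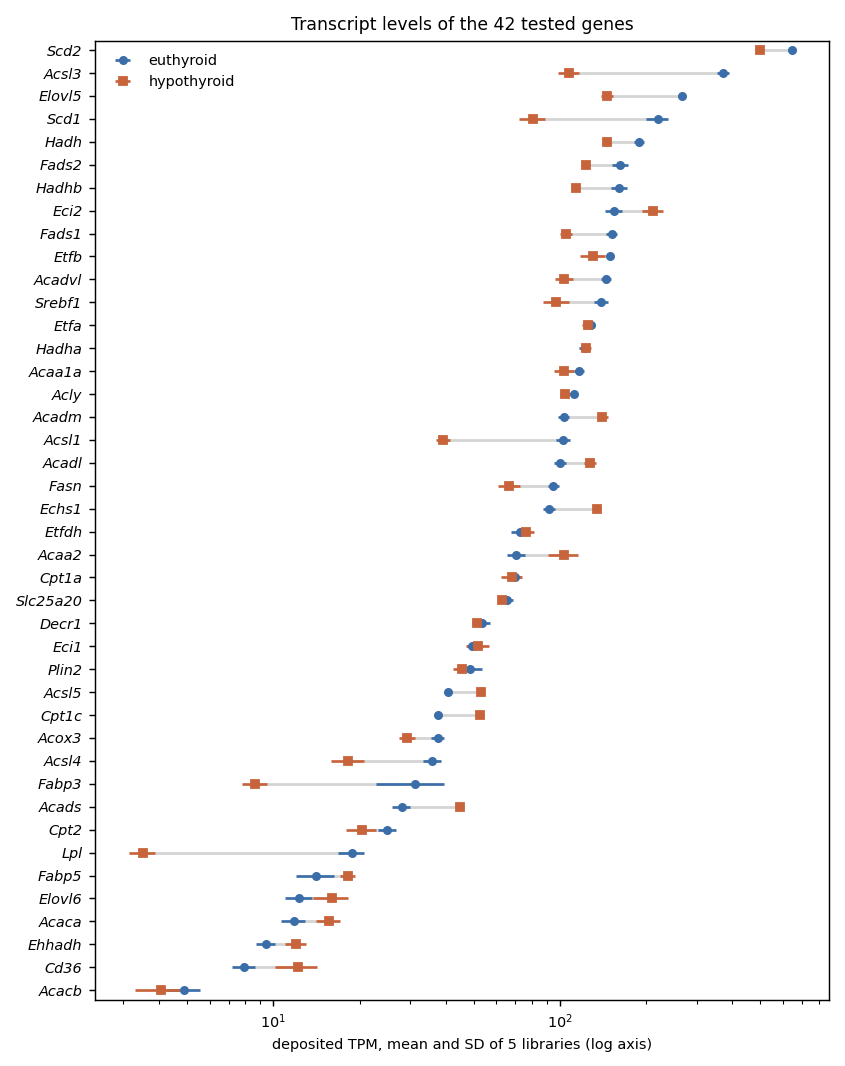
Deposited TPM on a log axis for the 42 tested genes, ordered by the euthyroid mean, with circles for euthyroid and squares for hypothyroid means and bars for the SD of 5 libraries. Scd2 stays first in both groups (646.5 and 498.4 TPM), while Acsl3, Scd1, Acsl1, Fabp3 and Lpl show long grey lines to a lower hypothyroid level.

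Srebf1, the transcription factor that in liver turns on Fasn, Scd1 and other genes of synthesis, had 251.1, 236, 268, 281 and 278 CPM in euthyroid and 136, 176, 154, 150 and 169 CPM in hypothyroid libraries. It fell 1.67-fold and was held (log2 fold change -0.74 with SE 0.07, edgeR adjusted p = 1.9e-07). Its relation to the genes of synthesis was not tested.

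The 10 ratios computed within libraries compare members of a pair without any scaling, as a description with no test. Of the 9 that could be formed, 6 did not overlap between groups: Scd1 to Scd2, Cpt1a to Cpt1c, Hadha to Hadhb, Elovl6 to Elovl5, Acsl5 to Acsl1 and Acadl to Acadvl. Lack of overlap was common in this series: 57.9% of all single genes tested did not overlap in scaled CPM. The share among ratios of other gene pairs was not computed. The greatest shift on the log2 scale was 1.78, for Acsl5 to Acsl1, and the next 1.24, for Elovl6 to Elovl5. The ratio of Etfa to Etfb, the 2 subunits of the flavoprotein, shifted by 0.17 and overlapped. The ratio of Fabp4 to Fabp5 was not formed because Fabp4 is listed at 0 in some libraries.

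**Figure D4:**
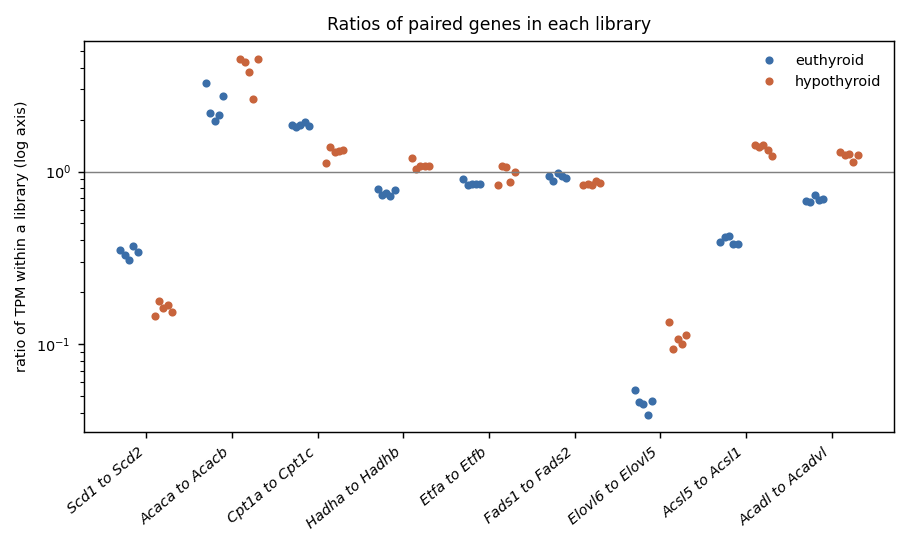
Ratio of TPM of 2 genes within each library on a log axis, for 9 pairs, with 5 euthyroid and 5 hypothyroid points each and a line where both genes are equal. Hadha to Hadhb, Acsl5 to Acsl1 and Acadl to Acadvl lie below the line in every euthyroid library and above it in every hypothyroid one.

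Around the 43 genes, 6 further lists with 104 genes of the same pathways were read in the same fit, and 100 of them were tested (Cidec was not analysed here). Of these, 18 were higher, 64 lower and 18 did not pass, with a median log2 fold change of -0.40. Among all genes tested, 37.7% were higher and 34.1% lower, with a median of 0.04, the reference for each list below. With library sizes alone 31 were higher and 49 lower, and the median was -0.13, where that of all genes was 0.3. The list of other mitochondrial oxidation genes had 3 higher, 4 lower and 5 of 12 that did not pass, with a median of 0.03. Library sizes alone gave 7 higher and 3 lower, with a median of 0.29. Besides Slc22a5, the ones with the largest change among those abundant enough to be named were the dehydrogenase Acad11 (log2 fold change -0.42 with SE 0.05, edgeR adjusted p = 4.84e-06) and the mitochondrial acyl-CoA synthetase Acsf2 (log2 fold change -0.40 with SE 0.04, edgeR adjusted p = 5.78e-07).

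The other peroxisomal list had 3 higher and 9 lower of 15, with a median of -0.18. These became 6 higher and 7 lower with library sizes alone, and the median turned to 0.08. Phyh, which starts the alpha-oxidation of phytanic acid, fell 4.6-fold, from 238, 251, 215, 276 and 217 CPM to 45.5, 56.1, 52.6, 57.4 and 48.5 CPM (log2 fold change -2.20 with SE 0.08, edgeR adjusted p = 1.7e-11). Abcd2, a transporter of very long chains into the organelle, fell 2.63-fold (log2 fold change -1.40 with SE 0.15, edgeR adjusted p = 6.84e-07). In the other list of uptake, binding and activation, 5 were higher and 6 lower of 11, with a median of -0.39 (5 and 5, and -0.12, with library sizes alone). Fabp7, the binding protein of glia, fell 10.2-fold there, from 84.1 to 107 CPM to between 7.32 and 11.3 CPM (log2 fold change -3.35 with SE 0.10, edgeR adjusted p = 1.04e-12). Schwann cells are a known source of Fabp7, and their markers summed to 443 to 556 CPM in euthyroid and 345 to 423 in hypothyroid libraries, with 2 higher, 3 lower and 2 of 7 that did not pass and none at 0 in all libraries of a group. Their part in the fall of Fabp7 was not tested.

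The other list of synthesis, desaturation and elongation had 2 higher and 14 lower of 19, with a median of -0.36. Library sizes alone gave 4 higher and 8 lower, with a median of -0.09. The largest change in the list was a rise. Elovl2, an elongase of long polyunsaturated chains, rose 11.6-fold and was held, from 0.51 to 0.86 CPM to between 5.82 and 8.58 CPM (log2 fold change 3.53 with SE 0.18, edgeR adjusted p = 1.43e-10). It is below the mean level set for named genes and was added after its values were seen. Thrsp, a nuclear protein of lipid synthesis named for its response to thyroid hormone in liver, fell 10.1-fold, from 12.3, 11.8, 14.3, 17.4 and 13.4 CPM to 0.70, 1.47, 1.78, 1.11 and 1.74 CPM (log2 fold change -3.34 with SE 0.19, edgeR adjusted p = 7.15e-10). Elovl4, the elongase of very long chains, fell 2.37-fold (log2 fold change -1.25 with SE 0.18, edgeR adjusted p = 0.000131). The list of glycerolipid synthesis, droplets and lipolysis was lower in 16 of 20 and higher in 1, with a median of -0.71 (14 lower and 3 higher, and -0.44, with library sizes alone), and 14 falls were held. Its named genes were Lpin3, a phosphatidate phosphatase (5.24-fold lower, edgeR adjusted p = 6.23e-11), G0s2, an inhibitor of lipolysis (5.11-fold lower, edgeR adjusted p = 6.4e-07), and the droplet protein Cidea (4.19-fold lower, edgeR adjusted p = 6.01e-11).

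The regulators had 4 higher and 15 lower of 23, with a median of -0.56 (6 and 12, and -0.30, with library sizes alone). Prkaa2, a catalytic subunit of AMP-activated kinase, fell 4.11-fold (log2 fold change -2.04 with SE 0.11, edgeR adjusted p = 1.17e-08). Insig1, which keeps the products of the Srebf genes in the endoplasmic reticulum, fell 2.17-fold (log2 fold change -1.12 with SE 0.10, edgeR adjusted p = 2.1e-07). Ppara, the nuclear receptor that drives fatty acid oxidation in liver, rose 2.12-fold, from 5.89, 6.09, 5.30, 3.21 and 5.77 CPM to 8.89, 13.7, 9.74, 11.9 and 11.6 CPM (log2 fold change 1.08 with SE 0.16, edgeR adjusted p = 2.38e-05). The rise of Ppara was held, and its groups did not overlap.

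**Figure D5:**
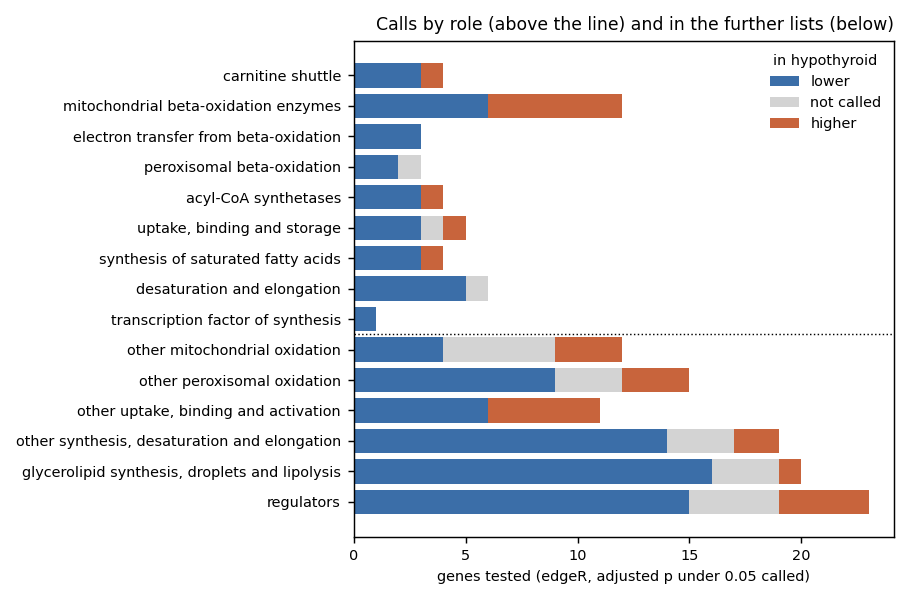
Number of tested genes called lower, not called or called higher in hypothyroid libraries (edgeR, adjusted p under 0.05), above the dotted line for the 9 roles of the 43 genes and below it for the 6 further lists. Lower calls fill most of each bar except those of the mitochondrial enzymes (6 of 12) and of other mitochondrial oxidation (4 of 12). Of all genes tested, 34.1% were lower and 37.7% higher.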

How the data were processed

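The study measured polyadenylated RNA in 5 euthyroid and 5 hypothyroid libraries, read as single ends of 50 bases per the labels' protocols. The submitters' processing notes name RSEM 1.2.12, Bowtie2 2.2.5, HISAT2 2.0.4 and build GRCm38.p6. Roles, strandedness and annotation are not given in the sources used here. The authors deposited estimated counts per gene (RSEM's expected counts), TPM and FPKM values, and a scaled signal that was not used, per the file headers. Estimated counts divide reads that match several genes.

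The expected counts were rounded, filtered with filterByExpr (minimum count 10), scaled with TMM and tested with edgeR 4.0.16 (quasi-likelihood, robust, group as the only term, two-sided) in R 4.3.3, with limma 3.58.1 and DESeq2 1.42.0 among 11 alternatives and 10 fits that leave out a library. SE is the absolute log2 fold change over the square root of F. The limma fits used genes of a mean of at least 1 TPM or FPKM. TPM served for levels between genes and for ratios. The scripts were tested on simulated data. Figures were drawn with Python 3.11.15 and matplotlib 3.10.9. Within groups, the mean chi-square per gene over 20 pairs of libraries was 5.3 to 15.6, so none was taken as a duplicate. Coordinates, promoters and start sites are RefSeq's on GRCm38.p6, and exon overlaps are from GENCODE.

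The members and lists were chosen with earlier results of these data known. Every member is accounted for. Of each further list, the up to 3 genes with the largest absolute log2 fold change among those called with a mean of at least 5 CPM are named, and Cpt1b and Acaa1b as relatives of members. A further relative is not reported here. Gpihbp1 stands beside Lpl as a listed marker. Of 14 marker lists, those not named in the results were osteoclasts (3 of 3 tested lower), hair cells (4 of 5 lower, 1 higher), marginal cells of the stria (1 of 4 lower) and red blood cells (1 of 6 lower).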

Additional observations from a re-analysis of the deposited data

Results flagged for a closer look

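Among 126 groups of 5 libraries (43 members and 20 other named genes, each in both conditions), 4 had 1 library that stood apart from the rest in scaled CPM by Dixon's ratio above 0.71. Chance alone gives about 1 in 20. Of the 86 groups of members, 2 did. For Acacb, hypothyroid library 4 had 17.0 CPM, and the next highest 11.9. For Acly, euthyroid library 1 had 220 CPM, and the next 216. Among the other genes, hypothyroid library 4 was highest for Cpt1b, at 13.2 CPM with the next at 9.37. Euthyroid library 4 was lowest for Ppara, at 3.21 CPM, and the next had 5.30. The calls of Acacb and Acly held in each of the 10 fits that left out 1 library.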

How the results depend on the processing

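Scaling was the choice that moved the results most. With library sizes alone 8650 genes were higher and 2928 lower, 74.7% of called genes higher against 52.5% with TMM, and 17 members were lower. The share was 62.5% with upper quartile factors, 71.2% with TPM and 74.0% with FPKM. Lower genes numbered 3115 and 3114 with limma on TPM (pseudocounts 1 and 0.1) and 2652 on FPKM, where 19 members were lower. Sign turned for 4 members, in the order library sizes, TPM with either pseudocount, FPKM: Hadha to 0.06, 0.02, 0.02 and 0.06, Eci1 to 0.10, 0.06, 0.06 and 0.09, and Etfdh to 0.11, 0.07, 0.07 and 0.11. Etfa turned to 0.01 with library sizes and with FPKM. The cause was not tested. Leaving out 1 library gave 10294 to 10663 called genes, 8 to 10 members higher and 27 to 29 lower. Acadl, Eci1, Etfdh and Acaca then lost their calls in some of the 10 fits, and Elovl6 gained one without hypothyroid library 2. Libraries of the same number did not deviate together (correlations of 0.108, -0.0774, 0.00298, 0.0412 and 0.09), and a fit with the replicate number as a block gave 10392 called genes, 10 members higher and 28 lower. With a covariate for Y-linked genes 8 members were higher and 28 lower. Fabp3 and Fabp5 were the tested members with the lowest means, near 5 CPM, and Fabp4 was too low for a test. The effect of depth on their values was not tested.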
